A study of Homo sapiens with 4 samples.

Results

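The 10 genes described here are transcription factors that set the balance between epithelial and mesenchymal cell states. 7 of them, ZEB1, ZEB2, SNAI1, SNAI2, TWIST1, TWIST2 and PRRX1, drive the epithelial–mesenchymal transition (EMT), and 3, GRHL2, OVOL1 and ELF3, hold cells in the epithelial state. Their rows were taken by gene name from a table of 58857 named rows, in which each of the 10 symbols was found. The table holds FPKM, numbers of sequenced fragments scaled by transcript length and library depth, from RNA-Seq of B-CPAP cells, a line established from papillary thyroid carcinoma (PTC). The control group was 2 libraries of B-CPAP cells carrying a short hairpin RNA against green fluorescent protein (shGFP), and the knockdown group was 2 libraries of B-CPAP cells carrying a hairpin against LDHA (shLDHA), the gene of the A subunit of lactate dehydrogenase. The methods describe lentivirus vectors for the LDHA hairpins and selection of infected cells with puromycin, and do not describe the control vector separately. For its migration and invasion assays in this line the paper names 2 different plasmids against LDHA. No source used here tells if the replicate libraries are separate cultures, or if both shLDHA libraries carry the same hairpin sequence, and the p-values below reflect nothing but the variation among 4 libraries, possibly of technical origin.

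In EMT, epithelial cells lose their junctions and polarity and take up a migratory, mesenchymal form. ZEB, SNAI and TWIST proteins bind short DNA sequences called E-boxes, and ZEB and SNAI proteins repress epithelial genes such as CDH1, the gene of E-cadherin, through CACCTG, or CAGGTG on the other strand. GRHL2, a grainyhead protein, and OVOL1, a zinc finger protein, repress ZEB1 in epithelial cells, and ELF3 is an ETS family factor of epithelia that opposes EMT in several carcinomas. ZEB1 and ZEB2 mRNA are silenced by the miR-200 family of microRNAs, and ZEB proteins repress the miR-200 genes in turn. In PTC the EMT factors have been studied for their part in invasion at the tumour front and in metastasis.

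2 of the 10 genes were higher in LDHA knockdown cells after scaling of the libraries, ELF3 by 3.08-fold and SNAI1 by 1.64-fold, and 1, ZEB1, was lower, at 0.323 of its control level, having entered the test only through its control libraries. The call of SNAI1 depended on the scaling and was lost in the values as deposited. SNAI2, TWIST1 and TWIST2 were measured above 0.5 FPKM in all 4 libraries and did not pass the test, with log2 fold changes of -0.60, 1.31 and 0.34. ZEB2 stayed under the limit on low values and was not tested, and PRRX1, GRHL2 and OVOL1 were listed at 0 FPKM in all 4 libraries. The test was limma on log2(FPKM + 0.1), with p-values adjusted by Benjamini-Hochberg over the 13291 rows that had at least 0.5 FPKM in at least 2 libraries. An adjusted p under 0.05 is called a change, and a fold change on this scale understates the change of low genes. Over all tested rows 31.0% were called, 18.1% as higher and 12.9% as lower in LDHA knockdown cells, beside 3 of the 6 tested members, a count that includes ZEB1. A call by itself is therefore shared among 4119 rows and does not set a member apart.

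The LDHA knockdown was visible in the target. LDHA, on the plus strand of chromosome 11 (GRCh37, 18416107 to 18429972), stood at 1186 and 1183 FPKM in the shGFP libraries and at 176 and 168 FPKM in the shLDHA libraries, a log2 fold change of -2.44 after scaling (standard error 0.083, limma adjusted p = 0.00756). Before scaling, the median over all tested rows was lower in the shLDHA libraries by a log2 difference of -0.33, and scaling by a trimmed mean of M values (TMM) brought it to -0.004. The split of calls followed the scaling: 2410 rows were higher and 1709 lower after TMM, 904 and 3114 in the values as deposited, 1897 and 2471 after upper quartile scaling, and 708 and 4609 as TPM, in which every library has the same total and the median of all tested rows was -0.48. All changes below are relative to the TMM-scaled median unless they are said to be as deposited. The depth, estimated from steps between low values, was 18600000 to 25300000 fragments per library. A fit without shGFP library 1 or 2 takes its spread from the shLDHA pair alone, and no row kept a call in it. The cause of that loss was not tested. Of the markers of the thyroid, PAX8, FOXE1 and HHEX were above 0.5 FPKM, and FOXE1 (log2 fold change -0.77, limma adjusted p = 0.0294) and HHEX (-0.70, limma adjusted p = 0.0348) fell in LDHA knockdown cells, with PAX8 at 0.01 (limma adjusted p = 0.967), while TG, TSHR, SLC5A5 and NKX2-1 were under 0.5 FPKM in all 4 libraries. The part of the thyroid markers in the changes of the members was not tested. The keratin genes KRT7, KRT8 and KRT18 were expressed, and the epithelial markers KRT19, EPCAM and CDH1 were under 0.5 FPKM in all libraries.

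The sequences that follow are the promoter of ELF3, the tested member with the largest rise, and the promoter window of ZEB1 that holds the most ZEB and SNAI E-boxes. They are printed because these 2 genes moved in opposite directions and because the E-box is the sequence through which ZEB and SNAI proteins act. Each runs from 250 bases before to 50 bases after a start site in RefSeq (GRCh38.p14, plus strand), and capitals mark CACCTG or CAGGTG. The ELF3 window is chr1:202010337-202010636.
ELF3: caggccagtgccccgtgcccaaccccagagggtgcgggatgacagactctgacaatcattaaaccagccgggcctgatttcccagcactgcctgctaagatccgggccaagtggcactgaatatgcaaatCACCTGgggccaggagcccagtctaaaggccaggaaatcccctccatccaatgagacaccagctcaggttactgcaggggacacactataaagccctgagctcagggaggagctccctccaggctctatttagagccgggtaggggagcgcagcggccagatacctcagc
The ZEB1 window is chr10:31318966-31319265.
ZEB1: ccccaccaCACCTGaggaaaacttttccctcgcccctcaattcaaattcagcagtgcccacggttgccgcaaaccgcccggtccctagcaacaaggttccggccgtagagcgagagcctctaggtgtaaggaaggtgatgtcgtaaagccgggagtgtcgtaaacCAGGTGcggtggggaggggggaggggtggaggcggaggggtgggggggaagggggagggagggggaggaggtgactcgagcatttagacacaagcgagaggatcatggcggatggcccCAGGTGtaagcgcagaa
The ELF3 window holds 1 such E-box, which starts at base -120, counted from the start site as base 1. The ZEB1 window holds 3, which start at bases -242, -85 and 34. ZEB1 has 7 windows in the table, and 2 of them hold a CACCTG or CAGGTG. Of all 35116 promoter windows of this length 20.6% hold one on either strand, so a match is common and is a description of letters, not of a bound site. Windows were also matched for ZEB2, TWIST2 and PRRX1, and they hold neither form. The grainyhead motif AACCGGTT, found in 0.134% of all windows, was in none of the windows of these 5 genes.

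ELF3 was the most abundant of the 10 genes and rose in LDHA knockdown cells. ELF3 (chromosome 1, GRCh37, 201977073 to 201986311, plus strand) encodes an ETS family factor that activates epithelial genes. The table lists it at 29.7 and 34.6 FPKM in the shGFP libraries and 89.6 and 67.9 FPKM in the shLDHA libraries. Both shLDHA libraries lay above both shGFP libraries, with a gap wider than the distance within either pair. The mean ELF3 level after TMM was 28.6 ± 3.31 FPKM for shGFP and 88.0 ± 8.20 FPKM for shLDHA (SD, n = 2 each). The log2 fold change was 1.62 (standard error 0.12, 95% interval 1.29 to 1.95, limma adjusted p = 0.00767). In 14 of 16 alternative settings the call of ELF3 was kept. It was lost only without shGFP library 1 (log2 fold change 1.50, limma adjusted p = 0.145) and without shGFP library 2 (1.74, limma adjusted p = 0.130), and over the other settings the adjusted p was 0.00681 to 0.0308. The approximate number of fragments behind ELF3 was 1801 to 4923 per library. In bulk RNA, more RNA of a gene in each cell and more cells that express it cannot be told apart.

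**Figure D1:**
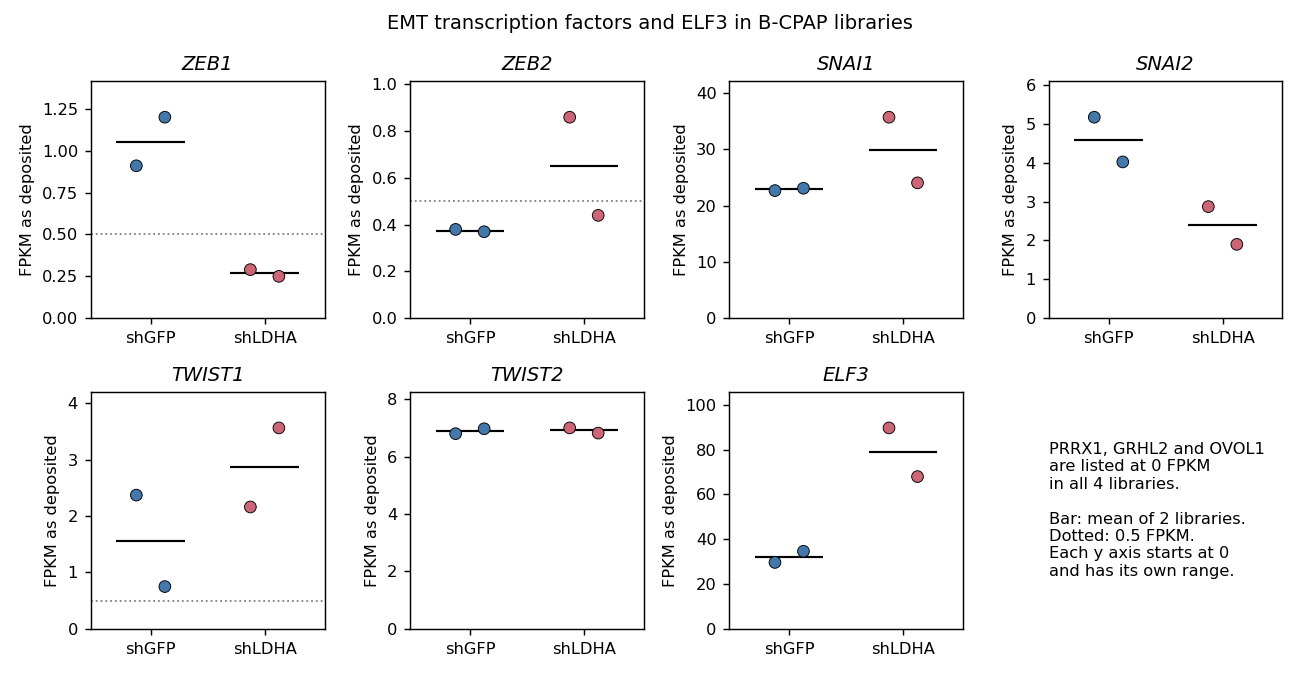
Deposited FPKM of the 7 members above 0 in any library, by gene: points are libraries, blue for shGFP and red for shLDHA, with replicate 1 on the left of each pair, bars are means of 2 libraries, the dotted line is 0.5 FPKM, and each vertical axis starts at 0 with its own range. ELF3 is higher in both shLDHA libraries (89.6 and 67.9 against 29.7 and 34.6 FPKM), ZEB1 is lower in both (0.29 and 0.25 against 0.91 and 1.20 FPKM), and the TWIST2 libraries lie between 6.80 and 7.0 FPKM.

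ELF3-AS1, a long noncoding RNA on the opposite strand, shares 664 exonic bases with ELF3. It stood at 0.94 and 1.26 FPKM in the shGFP libraries and at 1.06 and 0.74 FPKM in the shLDHA libraries. Its groups overlapped and it did not pass the test (log2 fold change 0.04, limma adjusted p = 0.923). Whether counting used the strand is not given in the labels or methods, so reads in the shared bases cannot be assigned between them, although the ELF3 level was far above that of ELF3-AS1 in all libraries.

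The other epithelial counterparts were listed at 0. GRHL2 (chromosome 8, GRCh37, 102504667 to 102681954, plus strand), a grainyhead factor needed for epithelial junction genes, and OVOL1 (chromosome 11, 65554534 to 65564685, plus strand), a zinc finger factor of epithelial differentiation, were listed at 0 FPKM in all 4 libraries. PRRX1 (chromosome 1, 170631869 to 170708562, plus strand), a homeobox factor of mesenchymal and migrating cells, was also listed at 0 in all libraries. Of 137 genes of ribosomal proteins, proteasome subunits and RNA polymerase II subunits, 3 were listed at 0 in all libraries and 5 in at least 1 library, so a listed 0 is not read here as absence of the RNA.

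ZEB1 fell in LDHA knockdown cells, at levels close to the limit on low values. ZEB1 (chromosome 10, GRCh37, 31607424 to 31818742, plus strand) encodes a zinc finger and homeodomain repressor of CDH1 and of the miR-200 genes. It was listed at 0.91 and 1.20 FPKM in the shGFP libraries and 0.29 and 0.25 FPKM in the shLDHA libraries. Both shLDHA libraries lay under 0.5 FPKM and both shGFP libraries above it, so ZEB1 entered the test only through the control group, and a gene that enters in this way had to differ between the groups. After TMM the levels were 0.938 ± 0.188 FPKM for shGFP and 0.303 ± 0.00062 FPKM for shLDHA (SD, n = 2 each). The log2 fold change was -1.35 (standard error 0.34, 95% interval -2.26 to -0.45, limma adjusted p = 0.0456), and about 111, 152, 31 and 36 fragments stood behind the values of shGFP libraries 1 and 2 and shLDHA libraries 1 and 2. The call of ZEB1 was lost in 8 of 15 alternatives, among them every fit without 1 library: the limma adjusted p was 0.169 and 0.211 without shGFP libraries 1 and 2 and 0.0751 and 0.0797 without shLDHA libraries 1 and 2. Its log2 fold change was below 0 in all of them, from -1.75 to -0.57 in fits with all libraries, and its adjusted p was 0.0220 to 0.0876 there. The antisense transcript ZEB1-AS1 shares 396 exonic bases with ZEB1 and stood at 1.10 and 2.53 FPKM in the shGFP libraries and at 1.84 and 1.60 FPKM in the shLDHA libraries. The ZEB1-AS1 groups overlapped (log2 fold change 0.35, limma adjusted p = 0.552).

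ZEB2 lay just outside the limit, and its values moved the other way. ZEB2 (chromosome 2, GRCh37, 145121931 to 145278624, minus strand), the paralog of ZEB1, stood at 0.38 and 0.37 FPKM in the shGFP libraries and at 0.86 and 0.44 FPKM in the shLDHA libraries. Only shLDHA library 1 was above 0.5 FPKM, and the higher mean of LDHA knockdown cells (0.717 ± 0.260 against 0.333 ± 0.0041 FPKM after TMM, SD, n = 2 each) rests mainly on that library. With rows of at least 0.1 FPKM in 2 libraries admitted, ZEB2 had a log2 fold change of 0.88 (limma adjusted p = 0.153), and with no limit 0.87 (limma adjusted p = 0.249). The antisense gene ZEB2-AS1, which shares 1299 exonic bases with ZEB2, was listed at 0 in all libraries. The ratio of ZEB2 to ZEB1, which does not depend on how a library is scaled, was 0.418 and 0.308 in the shGFP libraries and 2.97 and 1.76 in the shLDHA libraries. ZEB1 was thus the higher of the ZEB genes in both control libraries, and ZEB2 in both LDHA knockdown libraries. ZEB1 passed the limit on low values only through the control group, and ZEB2 did not pass it.

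The miR-200 family is the best known brake on ZEB1 and ZEB2 mRNA, and its mature sequences are shown because their seeds largely define which mRNAs they bind. The following are RefSeq sequences with the seed, bases 2 to 8, in capitals.
hsa-miR-200c-3p: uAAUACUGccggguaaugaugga
hsa-miR-141-3p: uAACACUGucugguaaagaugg
hsa-miR-200b-3p and hsa-miR-429 share the seed of hsa-miR-200c-3p, and hsa-miR-200a-3p shares that of hsa-miR-141-3p. MicroRNAs were not measured in these libraries, which were made from mRNA. MIR200CHG, the host gene of miR-200c and miR-141 on chromosome 12, was listed at 0 FPKM in all 4 libraries, as was MIR205HG, the host of miR-205. Of the 8 host and antisense genes in the table, 4 were tested and 0 were called in limma, with 0 at an unadjusted p under 0.05 and a median of -0.18.

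SNAI1 was the most abundant EMT factor and rose in LDHA knockdown cells after TMM. SNAI1 (chromosome 20, GRCh37, 48599517 to 48605423, plus strand) encodes Snail, a short-lived zinc finger repressor of CDH1 whose protein level is held down by phosphorylation and ubiquitin ligases. The deposited values were 22.7 and 23.1 FPKM in the shGFP libraries and 35.7 and 24.0 FPKM in the shLDHA libraries. The shGFP libraries were close to each other, shLDHA library 1 stood apart above them, and shLDHA library 2 was only just above them. TMM scaling gave SNAI1 levels of 20.3 ± 0.389 FPKM for shGFP and 33.2 ± 5.84 FPKM for shLDHA (SD, n = 2 each). The log2 fold change was 0.70 (standard error 0.14, 95% interval 0.31 to 1.08, limma adjusted p = 0.0300). The call of SNAI1 depended on the scaling and was lost in 7 of 16 alternatives, with an adjusted p from 0.0104 to 0.473 over all of them. As deposited the log2 fold change was 0.36 (limma adjusted p = 0.246), as TPM 0.20 (limma adjusted p = 0.473), with length offsets, which take out any trend of a library with transcript length, 0.42 (limma adjusted p = 0.104), and without shGFP libraries 1 and 2 it was 0.68 and 0.72 (limma adjusted p = 0.192 and 0.170).

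**Figure D2:**
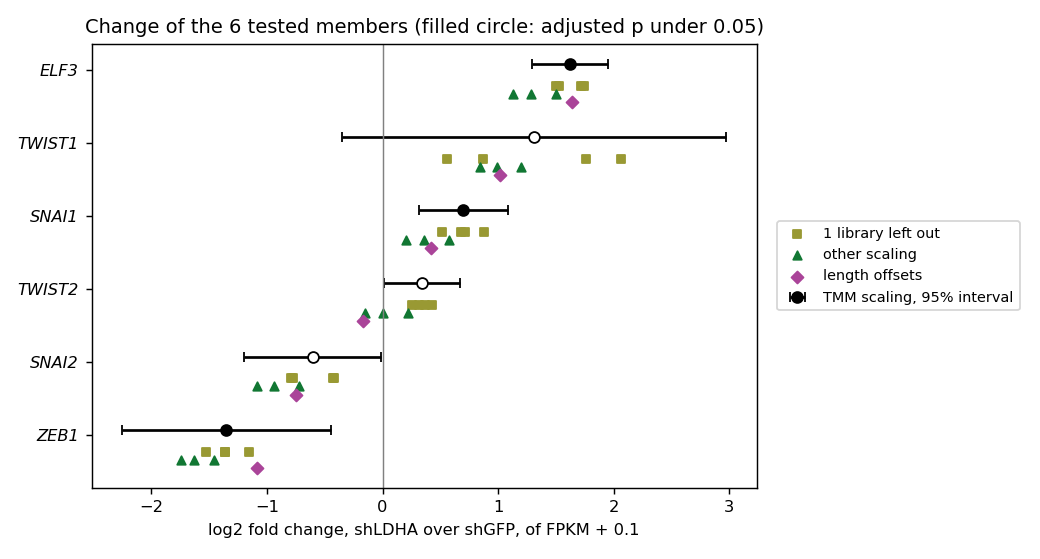
Log2 fold change of FPKM + 0.1, shLDHA over shGFP, for the 6 tested members: black circles are TMM-scaled fits with 95% intervals, filled at an adjusted p under 0.05, squares are fits without 1 library, triangles are other scalings and diamonds are fits with length offsets. ELF3 lies between 1.13 and 1.74 in all fits drawn, SNAI1 between 0.20 and 0.88 and ZEB1 between -1.75 and -1.08, while TWIST2 lies on both sides of 0.

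SNAI2 was lower in both LDHA knockdown libraries but did not pass the test. SNAI2 (chromosome 8, GRCh37, 49830157 to 49834299, minus strand) encodes Slug, a paralog of Snail that is known from neural crest and from basal epithelial cells. SNAI2 was listed at 5.17 and 4.02 FPKM in the shGFP libraries and 2.87 and 1.90 FPKM in the shLDHA libraries. The groups did not overlap, but the gap between them was about as wide as the distance within each pair. After TMM the levels were 4.08 ± 0.696 and 2.65 ± 0.498 FPKM (SD, n = 2 each), and the log2 fold change was -0.60 (standard error 0.22, 95% interval -1.20 to -0.01, limma adjusted p = 0.103). SNAI2 passed under 1 of 16 alternatives, the values as TPM, at -1.08 (limma adjusted p = 0.0335), and the adjusted p over the others was 0.0565 to 0.393. The ratio of SNAI1 to SNAI2 within a library was 4.38 and 5.74 in the shGFP libraries and 12.4 and 12.6 in the shLDHA libraries. Snail transcripts were thus in excess of Slug transcripts in all 4 libraries, and further in excess in both LDHA knockdown libraries.

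The TWIST genes did not pass the test. TWIST1 (chromosome 7, GRCh37, 19060614 to 19157259, minus strand), a basic helix-loop-helix factor of mesoderm and neural crest, stood at 2.37 and 0.75 FPKM in the shGFP libraries and at 2.16 and 3.56 FPKM in the shLDHA libraries. The groups overlapped as deposited, and shGFP library 2 stood far below the other 3 libraries. After TMM the TWIST1 levels were 1.38 ± 1.01 and 3.29 ± 1.45 FPKM (SD, n = 2 each), with a log2 fold change of 1.31 (standard error 0.62, 95% interval -0.35 to 2.98, limma adjusted p = 0.171), an interval that holds both no change and a rise of several fold. Without shGFP library 2 the log2 fold change was 0.56 (limma adjusted p = 0.492), and without shGFP library 1 it was 2.06 (limma adjusted p = 0.163).

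TWIST2 (chromosome 2, GRCh37, 239756673 to 239832230, plus strand), its paralog, was the steadiest detected member in the deposited values. It stood at 6.80 and 6.97 FPKM in the shGFP libraries and at 7.0 and 6.82 FPKM in the shLDHA libraries. The groups overlapped, and the shGFP and shLDHA libraries were interleaved. After TMM the TWIST2 levels were 6.12 ± 0.146 and 7.79 ± 0.658 FPKM (SD, n = 2 each), and the log2 fold change was 0.34 (standard error 0.12, 95% interval 0.01 to 0.67, limma adjusted p = 0.0983). The direction depended on the scaling: it was 0.01 as deposited (limma adjusted p = 0.980), -0.15 as TPM (limma adjusted p = 0.423) and -0.17 with length offsets (limma adjusted p = 0.288), and its adjusted p over all alternatives was 0.0780 to 0.980. TWIST2 exceeded TWIST1 within every library, with ratios of 2.87 and 9.29 in the shGFP libraries and 3.24 and 1.92 in the shLDHA libraries.

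The members differed in level more than the groups did. By mean deposited FPKM, which is per length of transcript, the order was ELF3 (55.5), SNAI1 (26.4), TWIST2 (6.90), SNAI2 (3.49), TWIST1 (2.21), ZEB1 (0.663) and ZEB2 (0.513), followed by the 3 genes listed at 0. Among the tested rows ELF3 lay at percentile 84.9 of mean level, SNAI1 at 74.7, TWIST2 at 51.0, SNAI2 at 37.7, TWIST1 at 28.4 and ZEB1 at 6.43. The neighbours TWIST1 and SNAI2 exchanged places in shLDHA library 2, TWIST1 and ZEB1 in shGFP library 2, and ZEB1 and ZEB2 in both shLDHA libraries. ELF3, SNAI1 and TWIST2 kept their order in all 4 libraries. As deposited, 5 of the 7 detected members had groups that did not overlap, a count that includes ZEB2, which was not tested, beside 72.9% of all tested rows. ELF3, SNAI1 and ZEB2 were higher in this way, as were 20.0% of tested rows, and ZEB1 and SNAI2 lower, as were 52.8%. After TMM the groups of all 7 detected members, again with ZEB2 included, did not overlap, beside 72.5% of all tested rows.

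**Figure D3:**
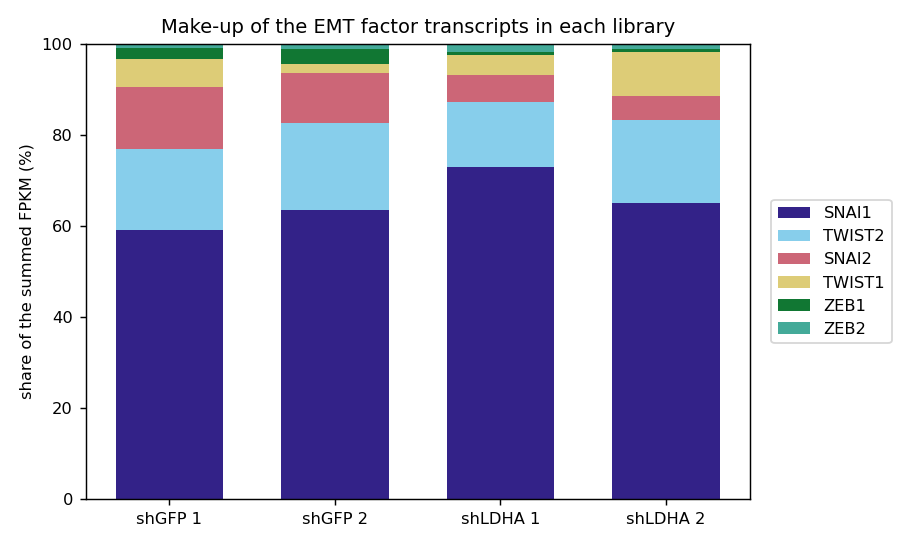
Share of each EMT factor in the summed deposited FPKM of the 7 EMT factors, in percent, for each of the 4 libraries (PRRX1 is listed at 0 and not drawn). SNAI1 makes up 59.2% to 73.0% in every library, and the SNAI2 and ZEB1 shares are smaller in both shLDHA libraries. ZEB1 passed the limit on low values only through the shGFP libraries.

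As a share of the summed FPKM of the 7 EMT factors, a measure that does not change with library scaling, SNAI1 made up 59.2% and 63.4% in the shGFP libraries and 73.0% and 64.9% in the shLDHA libraries. SNAI2 made up 13.5% and 11.1% in the shGFP libraries and 5.88% and 5.14% in the shLDHA libraries. ZEB1, which passed the limit on low values only through the control group, made up 2.38% and 3.30% and then 0.594% and 0.676% of the same sum. Among the EMT factors, the shares of SNAI2 and ZEB1 were thus smaller in both LDHA knockdown libraries, and the share of SNAI1 was larger. TWIST2 made up 14.3% to 19.2% with overlapping groups, and the sum itself was 38.3 and 36.4 FPKM in the shGFP libraries and 48.9 and 36.99 FPKM in the shLDHA libraries. For a share or ratio in 2 libraries against 2, no exact permutation test was run, since its smallest possible p is 0.333.

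The ratio of ELF3 to 5 of the 6 detected EMT factors was higher in both shLDHA libraries than in both shGFP libraries, and TWIST1 was the exception. ELF3 to ZEB1 was 32.6 and 28.9 in the shGFP libraries and 309 and 272 in the shLDHA libraries, a difference of 3.24 in the mean log2 ratio. That ratio rests in part on ZEB1, which passed the limit on low values only through the control group. ELF3 to SNAI2 was 5.74 and 8.61 in the shGFP libraries and 31.2 and 35.7 in the shLDHA libraries, a difference of 2.25. For SNAI1, itself called higher under only some scalings, the ratio of ELF3 to SNAI1 went from 1.31 and 1.50 to 2.51 and 2.83, a difference of 0.93. ELF3 to TWIST2 was 4.36 and 4.97 in the shGFP libraries and 12.8 and 9.96 in the shLDHA libraries, and ELF3 to ZEB2 was 78.0 and 93.6 and then 104 and 154. ELF3 to TWIST1 was 12.5 and 46.2 in the shGFP libraries and 41.5 and 19.1 in the shLDHA libraries. For TWIST1 the groups overlapped, with a difference of 0.23 in the mean log2 ratio. These ratios do not depend on the scaling of a library.

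**Figure D4:**
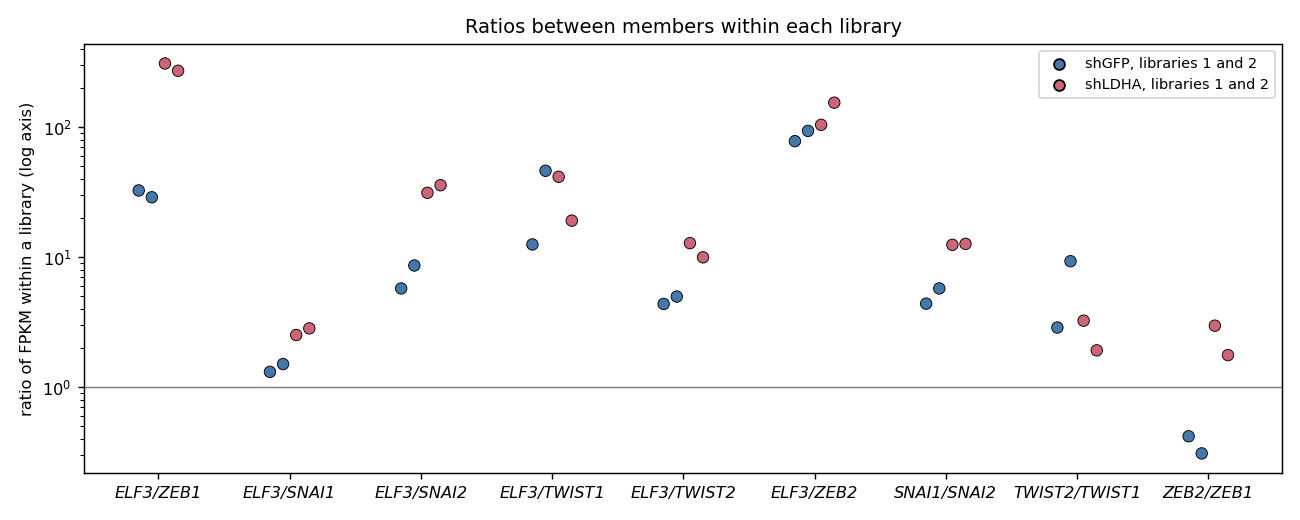
Ratios of deposited FPKM between members within each library on a log axis, with shGFP libraries in blue and shLDHA libraries in red. The ELF3 to ZEB1 ratio is 28.9 to 32.6 in shGFP and 272 to 309 in shLDHA libraries, the ZEB2 to ZEB1 ratio crosses 1, and the groups overlap for ELF3 to TWIST1 and TWIST2 to TWIST1. ZEB1 passed the limit on low values only through the shGFP libraries.

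The genes around the members were taken from lists of relatives, partners, regulators and targets, and each list is described by its counts and its median beside the median of -0.004 over all tested rows. The counts of every list below stand beside 18.1% of all tested rows called higher and 12.9% called lower after TMM. No list was tested as a set. Of the 16 other EMT factors, 10 were tested, 0 rose in limma (2 were higher at an unadjusted p under 0.05) and 4 fell, with a median log2 fold change of -0.44. ETS1, an ETS factor of invasive cells, went from 27.7 ± 1.07 down to 12.5 ± 0.0011 FPKM after TMM (SD, n = 2 each), with a log2 fold change of -1.14 (limma adjusted p = 0.00767). FOXC1, a forkhead factor of mesenchymal cells, fell by 0.81 on the log2 scale (limma adjusted p = 0.0242), SOX9 by 0.72 (limma adjusted p = 0.0367) and TCF12, an E protein that pairs with TWIST proteins, by 0.70 (limma adjusted p = 0.0477). With length offsets the calls of SOX9 (-0.61, limma adjusted p = 0.0504) and TCF12 (-0.42, limma adjusted p = 0.134) were lost. The counts of this list were then 2 higher and 2 lower, against 0 and 6 as TPM. SNAI3, the remaining SNAI gene, stood at 0.19 to 0.69 FPKM and was not tested, and PRRX2 was listed at 0. Of the 15 other epithelial factors only 4 passed the limit on low values, of which 0 rose in limma (0 were higher at an unadjusted p under 0.05), 1 fell and 3 did not pass, with a median of -0.18. FOXA1, a forkhead factor that opens chromatin in endoderm-derived epithelia, fell from 1.39 ± 0.123 to 0.274 ± 0.0275 FPKM (SD, n = 2 each), with a log2 fold change of -1.99 (limma adjusted p = 0.0165), and like ZEB1 it entered the test only through the control group. The relatives of the members in that list, GRHL1, GRHL3, OVOL2, ELF5 and EHF, were all at or under 0.38 FPKM, and ESRP1, a splicing factor of epithelial cells, was listed at 0 in all libraries. The ID proteins, which bind basic helix-loop-helix factors and keep them from DNA, had 3 of 4 genes tested, of which ID3 fell by 0.41 on the log2 scale (limma adjusted p = 0.0215) and 2 did not pass, with a median of -0.17.

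The list of corepressors and other chromatin partners of SNAI, ZEB and TWIST proteins, EP300 among them, was measured above the limit in full. Of 19 tested, 2 rose, 5 fell and 12 did not pass, with a median of -0.23. The counts were 0 higher and 8 lower as deposited, 0 and 7 after upper quartile scaling and 0 and 13 as TPM. Members of the Polycomb complex that writes H3K27 methylation fell: SUZ12 from 3.23 ± 0.0795 to 1.63 ± 0.102 FPKM (SD, n = 2 each, log2 fold change -0.94, limma adjusted p = 0.0226) and EZH2, its methyltransferase, by 0.57 on the log2 scale (limma adjusted p = 0.0294). PRMT5, an arginine methyltransferase, fell by 0.46 (limma adjusted p = 0.0226), and LIMD1 and EP300 were the other genes that fell. HDAC2, a histone deacetylase, rose by 0.40 after TMM (limma adjusted p = 0.0343) but had a log2 fold change of -0.091 as TPM, and WTIP, a LIM protein that binds Snail, rose by 0.57 (limma adjusted p = 0.0371). The calls of HDAC2 and WTIP were lost under the 3 other scalings, where WTIP had log2 fold changes of 0.23 as deposited, 0.45 after upper quartile scaling and 0.077 as TPM (limma adjusted p = 0.404, 0.0631 and 0.774) and HDAC2 turned to -0.091 as TPM (limma adjusted p = 0.573).

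Of the enzymes that set the life of SNAI, ZEB and TWIST proteins, 24 of 26 were tested, 4 rose, 3 fell and 17 did not pass, with a median of -0.21. As deposited 0 were higher and 7 lower, after upper quartile scaling 2 and 5, and as TPM 0 and 8. USP10, a deubiquitinase known to stabilise Slug, fell from 30.5 ± 1.31 to 19.1 ± 0.235 FPKM (SD, n = 2 each, log2 fold change -0.67, limma adjusted p = 0.0122). LATS2, a kinase that phosphorylates Snail in the nucleus, fell by 0.87 (limma adjusted p = 0.0212) and the deubiquitinase USP47 by 0.90 (limma adjusted p = 0.0407), a call that was lost with length offsets (-0.52, limma adjusted p = 0.134). CTDSP1, a phosphatase that removes inhibitory phosphates from Snail, rose by 0.65 after TMM (limma adjusted p = 0.0197), but its call was lost as deposited (0.31, limma adjusted p = 0.230) and as TPM (0.16, limma adjusted p = 0.502). The ubiquitin ligase genes STUB1 and FBXL5 rose by 0.44 and 0.38 after TMM (limma adjusted p = 0.0184 and 0.0253), and AKT1 was the fourth gene that rose. The calls of STUB1 and FBXL5 were lost as deposited (0.099 and 0.038, limma adjusted p = 0.589 and 0.835) and as TPM (-0.057 and -0.12). That of FBXL5 was also lost after upper quartile scaling (0.25, limma adjusted p = 0.0593) and that of STUB1 with length offsets (0.054, limma adjusted p = 0.637). Protein levels were not measured in these libraries.

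In the TGF-beta pathway, which induces SNAI and ZEB genes in epithelial cells, 9 of the 10 listed genes were tested, 0 rose in limma (1 was higher at an unadjusted p under 0.05) and 3 fell, with a median of -0.57. TGFBR2, the receptor that binds the ligand, fell from 20.2 ± 0.484 to 13.1 ± 0.723 FPKM (SD, n = 2 each, log2 fold change -0.63, limma adjusted p = 0.0161). SKIL and SMAD7, feedback inhibitors that are themselves induced by TGF-beta, fell by 1.24 (limma adjusted p = 0.0312) and 0.57 (limma adjusted p = 0.0363), and SKIL entered the test only through the control group. TGFB2, a ligand, stood at 4.40 and 4.52 FPKM in the shGFP libraries and at 4.92 and 4.59 FPKM in the shLDHA libraries. It did not pass after TMM (log2 fold change 0.42, limma adjusted p = 0.0705) but was called higher with length offsets (0.69, limma adjusted p = 0.0251). In this pathway list 2 genes were called higher and 3 lower with length offsets, and 0 and 5 as TPM.

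A list of 30 epithelial genes held known targets of the repressors or of the epithelial factors, with junction, polarity, keratin and other genes among them. Of these, 16 were tested, 6 rose, 1 fell and 9 did not pass, with a median of 0.65. As deposited 4 were higher and 1 lower, and as TPM 4 and 2. MUC1, a membrane mucin, had deposited values of 5.43 and 4.73 FPKM in the shGFP libraries and 18.8 and 14.7 FPKM in the shLDHA libraries, a log2 fold change of 2.03 (limma adjusted p = 0.00756). TJP3, a tight junction scaffold, rose from 0.0844 ± 0.0194 to 2.53 ± 0.0264 FPKM (SD, n = 2 each, log2 fold change 3.84, limma adjusted p = 0.00768), and it passed the limit only through the LDHA knockdown group, so that 5 of the 6 rises did not rest on such entry. LLGL2, a polarity gene, rose by 1.13 (limma adjusted p = 0.010), OCLN, the gene of occludin, by 1.16 (limma adjusted p = 0.0107) and CRB3, a Crumbs polarity gene, by 1.01 (limma adjusted p = 0.0198), and PKP3 was the sixth. The call of CRB3 was lost as deposited (0.67, limma adjusted p = 0.0510), as TPM (0.52, limma adjusted p = 0.0809) and with length offsets (0.55, limma adjusted p = 0.0765). CLDN1, the gene of the tight junction protein claudin-1, went the other way and fell by 1.15 (limma adjusted p = 0.0286). CDH1, the best known target of the EMT factors, stood at 0.02, 0.05, 0.05 and 0.01 FPKM and EPCAM at 0 to 0.13 FPKM, so neither was tested. The rise of some epithelial genes therefore came with CDH1 at or under 0.05 FPKM in both groups.

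Of 21 mesenchymal genes, 17 were tested, 3 rose, 5 fell and 9 did not pass, with a median of -0.02 that turned to 0.12 with length offsets. As deposited 1 was higher and 6 lower, after upper quartile scaling 2 and 5, and as TPM 1 and 8. CDH2, the gene of N-cadherin, fell to 0.391 of its control level (log2 fold change -1.30, limma adjusted p = 0.0144). FN1, the gene of fibronectin, fell from 103 ± 0.527 to 47.6 ± 3.78 FPKM (SD, n = 2 each, log2 fold change -1.11, limma adjusted p = 0.00768), and SPARC, a matrix protein gene, fell by 0.96 (limma adjusted p = 0.0174). PDGFRB and FBN1 were the other genes that fell. S100A4, a calcium-binding protein gene, rose by 1.61 (limma adjusted p = 0.0160), MMP2, a matrix metalloproteinase gene, by 0.80 (limma adjusted p = 0.0113) and LOX, which crosslinks collagen, by 0.77 (limma adjusted p = 0.0356). The calls of MMP2 and LOX were lost as deposited (0.46 and 0.44, limma adjusted p = 0.0874 and 0.157) and as TPM (0.30 and 0.29, limma adjusted p = 0.175 and 0.298), and that of LOX also after upper quartile scaling (0.65, limma adjusted p = 0.0505). VIM, the gene of vimentin, stood at 1389 and 1367 FPKM in the shGFP libraries and at 1429 and 1105 FPKM in the shLDHA libraries and did not pass (log2 fold change 0.21, limma adjusted p = 0.151). The fibroblast markers COL1A1 and PDGFRB summed to 17.1 and 18.1 FPKM with the rest of a 6-gene fibroblast list in the shGFP libraries and to 9.48 and 9.83 FPKM in the shLDHA libraries, while COL1A2, COL3A1, DCN and LUM were under 0.5 FPKM in all libraries. Of 7 leukocyte and endothelial markers only CD68 was above 0.5 FPKM, and the list summed to 30.3 and 29.9 FPKM in the shGFP libraries and to 45.2 and 34.2 FPKM in the shLDHA libraries. The part of these markers in the changes of the members was not tested.

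**Figure D5:**
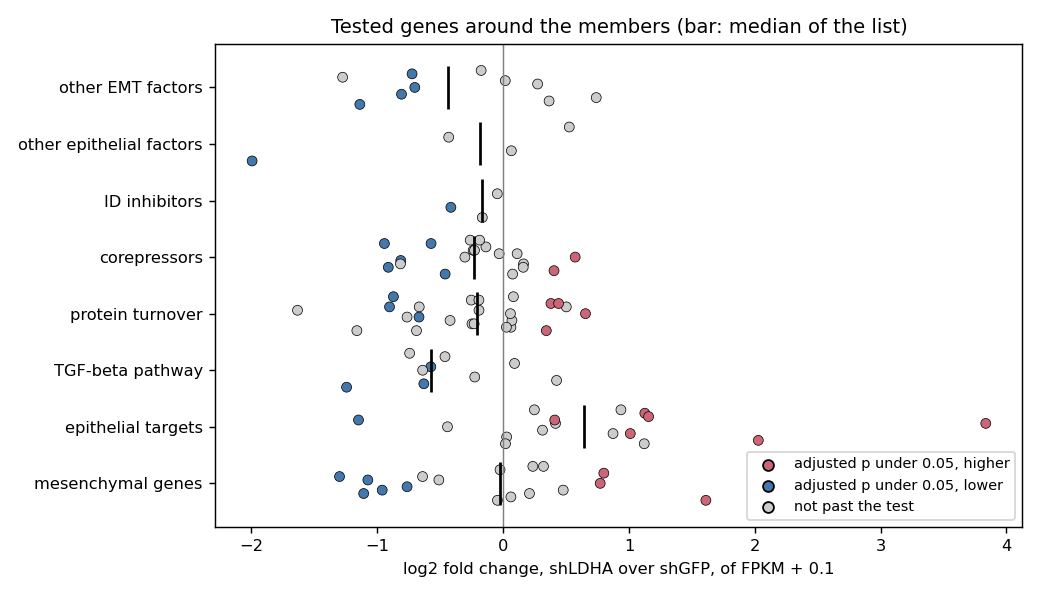
Log2 fold change of FPKM + 0.1, shLDHA over shGFP after TMM, of each tested gene in 8 lists around the members: red points rose and blue points fell at an adjusted p under 0.05, grey points did not pass, and the black bar is the median of the list. The median is 0.65 for epithelial targets, -0.57 for the TGF-beta pathway, -0.44 for other EMT factors and -0.02 for mesenchymal genes.

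Over the lists together 15 of 106 tested genes rose and 23 fell after TMM, beside 18.1% and 12.9% of all tested rows. The list counts were 5 and 31 in the values as deposited, 10 and 27 after upper quartile scaling and 5 and 46 as TPM. Over all 13291 tested rows the counts under the same scalings were 904 and 3114, 1897 and 2471, and 708 and 4609. The sign of each list's median was the same in these 4 scalings, but this says little about most lists. The median over all tested rows was -0.33 as deposited, -0.12 after upper quartile scaling and -0.48 as TPM. A list median already under 0 after TMM therefore had little room to change sign, and only that of the epithelial targets was above 0. With length offsets the median of the mesenchymal genes turned to 0.12. By the distance between centred log2 profiles over the 4 libraries, among 106 tested genes of the lists, the nearest to ZEB1 were ETS1 (distance 0.298) and CDH2 (0.321). Those nearest to ELF3 were MUC1 (0.503) and OCLN (0.567), and those nearest to SNAI1 were CTDSP1 (0.105) and WTIP (0.161). SNAI2 lay nearest to TNC (0.202) and TCF12 (0.255), and TWIST2 to HDAC2 (0.0849) and TGFB2 (0.0933). TWIST1, whose libraries spread widely within each group, had no gene closer than CRB3 (1.03) and AP1M2 (1.04). With 4 libraries in 2 groups, such a distance mostly reflects the size and direction of the group difference.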

How the data were processed

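RNA-Seq was done on 4 libraries of B-CPAP cells, 2 shGFP and 2 shLDHA. According to the methods of the study, reads were trimmed with Trim Galore, aligned with STAR on hg19 and counted with HTSeq on GENCODE genes. HISAT2 and hg38 stand in the processing notes of the submitters in place of STAR and hg19. The sources used here give neither which of these made the table nor the tool that scaled by length. What the authors deposited is FPKM to 2 decimals and not counts, so no count test was run.

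Of 59108 rows, 224 without a name (3.53% of the FPKM total in shLDHA library 2 and at most 0.440% in the others) and 27 with a date in place of the name were set aside. FPKM were scaled by TMM without weights (30% of M and 5% of A trimmed) and fitted on the scale of log2(FPKM + 0.1) in limma (version 3.58.1, R 4.3.3) with a variance trend and 2 residual degrees of freedom, in rows of at least 0.5 FPKM in at least 2 libraries. The fit was checked on simulated data. Depth was estimated from steps between low values, of which 83.0% to 85.8% lay within 0.15 of a whole fragment. Replicates had a Spearman's rho of 0.983 (shGFP) and 0.966 (shLDHA). Coordinates came by symbol from GENCODE on GRCh37, promoters and microRNAs from RefSeq (GRCh38.p14), where 5 of the 10 members matched a promoter. Alternatives were other scalings, pseudocounts and limits, no variance trend, length offsets (a spline with 5 degrees of freedom), a replicate block and each library left out.

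The members and lists were chosen with earlier results of these data known. The genes named are LDHA, the members, up to 3 genes per list and direction with the lowest p among those called (or the highest mean where none was), CDH1, EPCAM, ESRP1, VIM, CDH2, FN1, antisense transcripts of tested members and the 2 list genes nearest to each. LIMD1, EP300, AKT1, PKP3, PDGFRB, FBN1, SNAI3, PRRX2, relatives of the epithelial members, host genes and cell markers were named after their values were seen, to complete a count or a family.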

Additional observations from a re-analysis of the deposited data

How the results depend on the processing

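Of 16 alternatives, ELF3 kept its call in 14, SNAI1 in 9 and ZEB1 in 7 of the 15 that tested it, and none of the 3 changed direction. Members called higher and lower (2 and 1 after TMM) were 1 and 1 in the values as deposited, 1 and 2 as TPM, 2 and 0 with a pseudocount of 0.01, 1 and 0 with no limit on low values, 2 and 0 with at least 1 FPKM in 2 libraries (where ZEB1 was not tested), 1 and 1 with no variance trend and 1 and 0 with length offsets. Over all rows, 904 were higher and 3114 lower as deposited, 708 and 4609 as TPM, and 998 were lower with no limit. Over the lists, 5 genes were higher as deposited, 5 were higher and 46 lower as TPM, and 14 were lower with no limit. As TPM the log2 fold changes of HDAC2, STUB1 and FBXL5 were -0.091, -0.057 and -0.12. Without 1 library, rows higher ranged from 0 to 2729 and rows lower from 0 to 1788, members higher from 0 to 2 and lower from 0 to 0, and list genes higher from 0 to 20 and lower from 0 to 22. The cause was not tested, except that a fit without an shGFP library takes its spread from the shLDHA pair, whose median absolute log2 difference was 0.217 against 0.125 in the shGFP pair.

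Whether the label numbers pair the libraries is not known, since no label says what a number stands for. Same-numbered deviations had a correlation of 0.118 over 13291 rows, which cannot decide it with 2 libraries per group. With a replicate block, 2209 rows were higher and 1233 lower, 2 members were higher and 0 lower, and 13 list genes were higher and 17 lower.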
